A study of Aspergillus nidulans with 32 samples.

Results

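The genes described here encode 6 enzymes of trehalose and glycerol metabolism in Aspergillus nidulans, a filamentous fungus. They are tpsA (AN5523) and orlA (AN3441) for trehalose synthesis, treA (AN9340) and treB (AN5635) for its breakdown, and gfdA (AN0351) and gldB (AN5563) for glycerol synthesis. They are listed by identifier, in a rule that holds no measured value, and all 6 were found among the 10681 genes of the count table. The 32 RNA-seq libraries hold polyadenylated RNA of mycelium from 16 shaken cultures, with 2 biological cultures (A and B) in each of 8 groups and 2 technical libraries per culture. Pre-starved refed cultures grew for 20 h in minimal medium, spent 4 h in a salt solution and then 2 h in fresh minimal medium. Naive refed cultures grew for 24 h and then spent 2 h in fresh medium. Refed cultures of either history were moved for a further 1 h into used medium, spent by 48 h of earlier growth of the fungus, or into salt, which gave the pre-starved and naive used-medium and salt groups. Starved cultures ended after the 20 h of growth and 4 h in salt, and grown cultures after 24 h of growth. All groups were kept at 37 °C, and the growth medium held 50 mM glucose and 10 mM nitrate, both of which the salt solution lacked. The labels name a wild type, FGSC#4, and a strain called alcA(p)-sGFP-aflR (RKIS42.17), which by its name carries aflR under the alcA promoter, without stating which of them gave which sample. Starved and pre-starved cultures had grown for a shorter time and had an additional change of medium, so these differences and the starvation cannot be told apart. Naive refed cultures were likewise 2 h older than grown cultures. Used-medium and salt cultures had a further 1 h and a further change of medium compared with refed cultures. No group was moved into fresh medium for that hour, so these differences and the medium itself cannot be told apart.

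Trehalose is a disaccharide of glucose that fungi lay down in spores and resting cells, as a carbon store and as a protectant of proteins and membranes. It is made from UDP-glucose and glucose 6-phosphate by trehalose 6-phosphate synthase and then trehalose 6-phosphate phosphatase, and trehalases split it back into glucose. Glycerol is the solute that hyphae of A. nidulans accumulate under osmotic stress, and it is drawn from the dihydroxyacetone phosphate of glycolysis by glycerol 3-phosphate dehydrogenase, or from dihydroxyacetone by glycerol dehydrogenase. The data are transcript levels, and neither sugar content nor enzyme activity was measured.

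Culture totals ran from 39526910 to 66121549 counts, and a single gene of the 6 held between 1843 and 74727 counts in a culture. Levels are given per culture in TMM-scaled CPM and in FPKM, the same value per kb of exon, wherever 2 genes are compared. Differences are log2 fold changes, each with a standard error (SE), from 1 edgeR quasi-likelihood fit over all 16 cultures, and genes are called where the p, adjusted by Benjamini-Hochberg over the 10022 genes tested, lies under 0.05. TMM scaling takes most genes as steady. With it, however, 73.4% to 76.9% of tested genes were called in starved against grown and pre-starved refed against starved cultures, and in salt or used medium against refed cultures. The TMM factors ran from 0.707 to 0.848 in grown and refed cultures and from 1.06 to 1.27 in the others. Scaled to library totals instead, the median log2 change of all genes lay between -0.81 and 0.86 over the 14 comparisons, against -0.15 to 0.12 with TMM scaling, so every change is relative to the bulk of genes. In bulk RNA, fewer cells of a type and less RNA per cell cannot be told apart. A mycelium sample may hold spore-bearing structures, and 7 markers of these were counted. Their summed level was 208 to 373 CPM in pre-starved cultures in used medium against 89.2 to 100 CPM in naive ones, and 381 to 678 CPM in pre-starved cultures in salt against 99.7 to 112 CPM in naive ones. It was 1745 to 2201 CPM in pre-starved refed cultures against 41.6 to 44.4 CPM in naive refed ones, and 1147 to 1567 CPM in starved against 44.0 to 46.7 CPM in grown cultures. Most of this was the marker rodA, with 1820 ± 284 CPM in pre-starved refed and 875 ± 279 CPM in starved cultures. In starved cultures brlA added 365 ± 26.3 CPM (SD, n = 2 each). In each of these 2 pairs of groups 5 of the 7 markers were called higher and 2 were not called. Of all genes, 21.4% were higher in the refed pair and 38.8% in starved against grown cultures. No marker was at 0 in any culture. The part of spore-bearing structures in the results below was not tested.

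**Figure D1:**
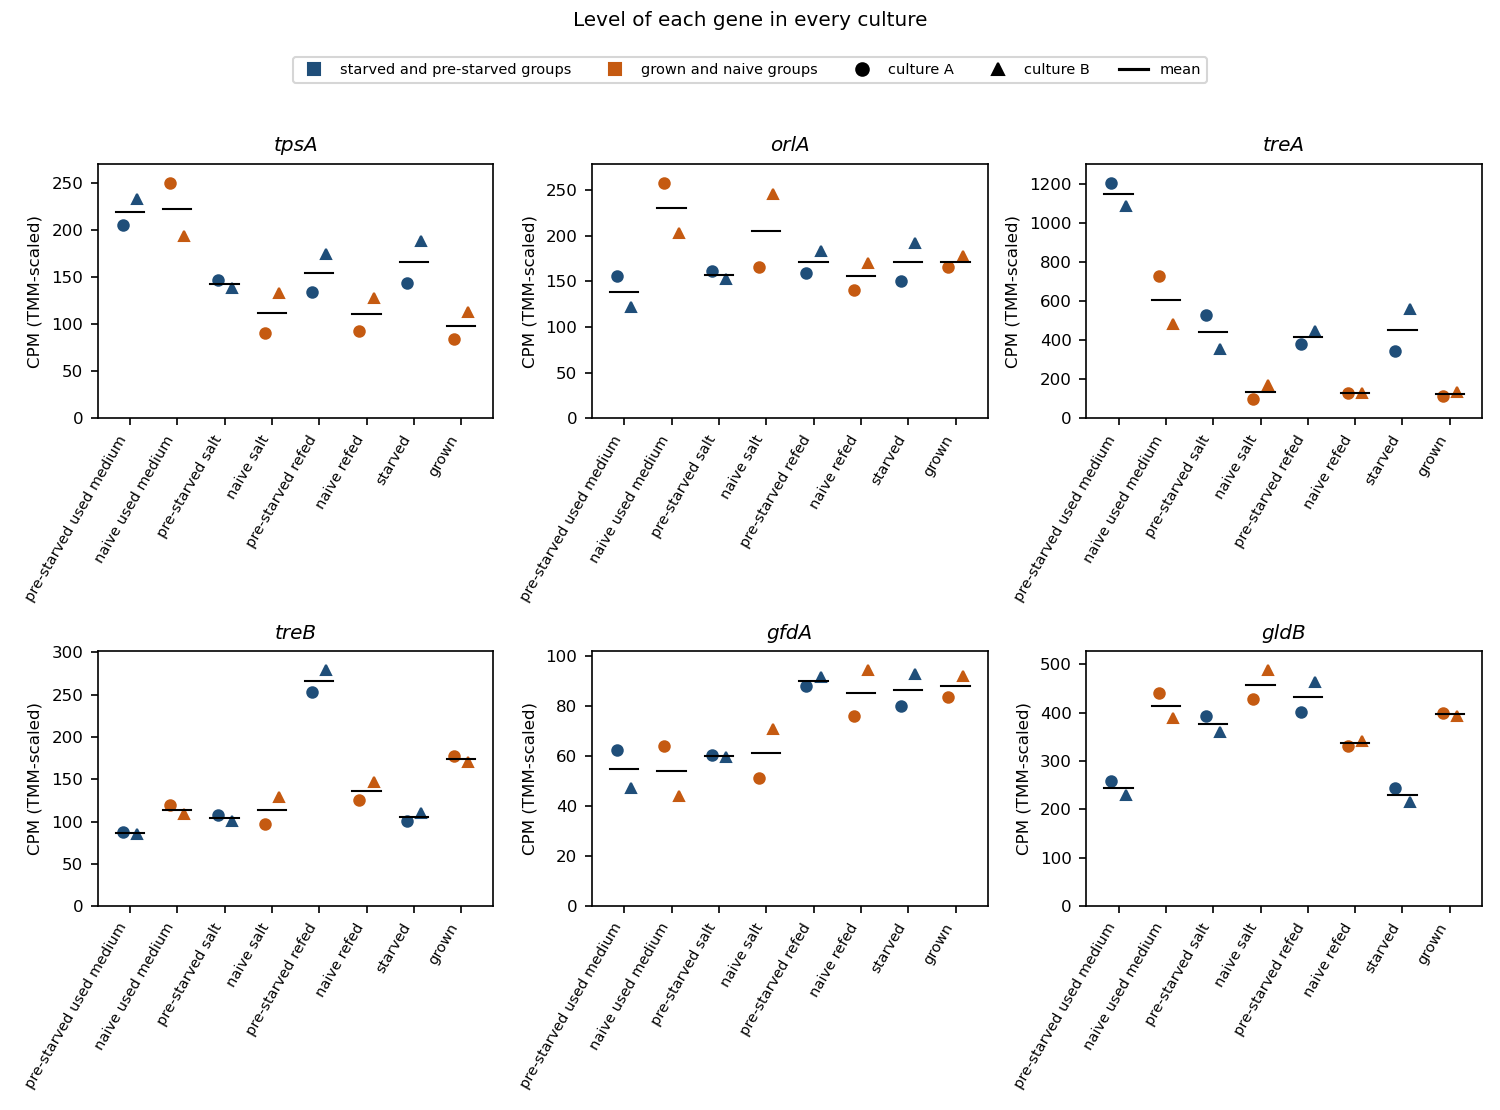
TMM-scaled CPM (vertical axis, from 0) of the 6 genes in each of the 16 cultures, by group; circles are culture A, triangles culture B and bars the mean of both. Expression of treA was 1089 to 1208 CPM in pre-starved cultures in used medium and 113 to 134 CPM in grown cultures, whereas gfdA stayed between 43.9 and 94.2 CPM in all 16.

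The gene of the first step of trehalose synthesis, tpsA, which encodes trehalose 6-phosphate synthase, was highest in used medium whatever the history of the culture. It had 205 and 234 CPM in pre-starved cultures and 251 and 194 CPM in naive cultures in used medium. In salt it had 147 and 139 CPM in pre-starved and 91.2 and 134 CPM in naive cultures. After refeeding, tpsA had 135 and 175 CPM in pre-starved and 93.5 and 128 CPM in naive cultures. Within each of the salt and refed pairs both pre-starved cultures lay above both naive cultures, and in used medium the groups overlapped. Starved cultures had 144 and 188 CPM and grown cultures 84.4 and 113 CPM, without overlap. From its highest group mean (naive cultures in used medium) to its lowest (grown cultures), tpsA spanned 2.25-fold.

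Used medium raised tpsA in naive cultures by 1.01 (SE 0.23, adjusted p 0.00158) relative to naive refed cultures, a call that held in every alternative tried. The difference of 0.98 between used medium and salt in naive cultures (SE 0.23, adjusted p 0.0142) was called too, but not without naive used-medium culture A (0.79, adjusted p 0.0915) or naive salt culture A (0.73, adjusted p 0.141). In pre-starved cultures, used medium against refeeding gave 0.50 (SE 0.23, adjusted p 0.0624, 95% interval 0.0033 to 1.00), which was not called. It was called on the groups of the comparison alone (0.50), on the first technical libraries (0.57), with library totals (1.11), with a replicate block (0.51, adjusted p 0.0296), and without pre-starved refed culture B (0.70, adjusted p 0.0445). The responses of pre-starved and naive cultures to used medium differed by -0.50 (SE 0.32, adjusted p 0.273, 95% interval -1.21 to 0.20), so no effect of history on the response was resolved. Used medium over salt in pre-starved cultures gave 0.62 (SE 0.23, adjusted p 0.0884), and was called with DESeq2 (0.65) and on the groups of the comparison alone (0.65). In starved cultures tpsA was 0.75 higher than in grown cultures (SE 0.23, adjusted p 0.0108), and this call was lost without starved culture B (0.55, adjusted p 0.0910) or grown culture A (0.55, adjusted p 0.103). An hour of salt left tpsA uncalled in pre-starved cultures (-0.11, SE 0.23, adjusted p 0.665; 0.66 with library totals) and in naive cultures (0.024, SE 0.23, adjusted p 0.929), where library totals gave a call (0.55, adjusted p 0.0274).

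The gene of the following step, orlA, which encodes trehalose 6-phosphate phosphatase, moved in another order. It had 155 and 122 CPM in pre-starved cultures and 258 and 203 CPM in naive cultures in used medium, and the groups did not overlap. In salt it had 162 and 152 CPM in pre-starved and 165 and 246 CPM in naive cultures, again without overlap. Refed cultures had 160 and 183 CPM with past starvation and 141 and 170 CPM without it, and these groups overlapped. Starved cultures had 151 and 193 CPM and grown cultures 166 and 178 CPM, so the grown values lay inside the starved range. Neighbouring group means of orlA overlapped all the way down the order, from naive used medium to pre-starved used medium, a span of 1.66-fold.

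Naive cultures raised orlA in used medium by 0.57 over naive refed cultures (SE 0.20, adjusted p 0.0203), but not without naive used-medium culture A (0.39, adjusted p 0.154) or naive refed culture A (0.44, adjusted p 0.135). Pre-starved cultures showed -0.31 over pre-starved refed cultures (SE 0.20, adjusted p 0.177; 0.30 with library totals). The difference between these responses, -0.87 (SE 0.28), was called with an adjusted p of 0.0368. It was not called without pre-starved used-medium culture B (-0.71), naive used-medium culture A (-0.69), pre-starved refed culture B (-0.77) or naive refed culture A (-0.74), where adjusted p ran from 0.112 to 0.130, nor with library totals (-0.64, adjusted p 0.0649), on the groups of the comparison alone (-0.87, adjusted p 0.0502) or on the second technical libraries (-0.85, adjusted p 0.0515). In used medium orlA was lower in pre-starved than in naive cultures (log2 change -0.74, SE 0.20, adjusted p 0.0117), and this was lost without pre-starved culture B (-0.57, adjusted p 0.101) or naive culture A (-0.55, adjusted p 0.0983). Salt over refeeding gave 0.40 in naive cultures (SE 0.20, adjusted p 0.0848), called without naive salt culture A (0.66, adjusted p 0.0122) and with library totals (0.93, adjusted p 3.69e-04). In salt the difference between pre-starved and naive cultures was -0.39 (SE 0.20, adjusted p 0.135), called without naive salt culture A (-0.65, adjusted p 0.0318) and with DESeq2 (-0.52). Between starved and grown cultures orlA differed by -0.0005 (SE 0.20, adjusted p 0.998, 95% interval -0.43 to 0.43; 0.50 with library totals).

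Because both genes were measured in the same culture, their ratio does not depend on the scaling between libraries. Per kb of exon, tpsA over orlA was 1.75 and 2.54 in pre-starved and 1.29 and 1.26 in naive cultures in used medium. It was 1.20 and 1.21 in pre-starved against 0.729 and 0.720 in naive cultures in salt, and 1.12 and 1.26 in pre-starved against 0.878 and 0.993 in naive refed cultures. Starved cultures had ratios of 1.27 and 1.29, and grown cultures 0.674 and 0.843. In all 4 pairs of groups the cultures with a starvation behind them had the higher ratio without overlap. The synthase transcript exceeded the phosphatase transcript per length in all of those cultures, and among the others only in used medium.

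**Figure D2:**
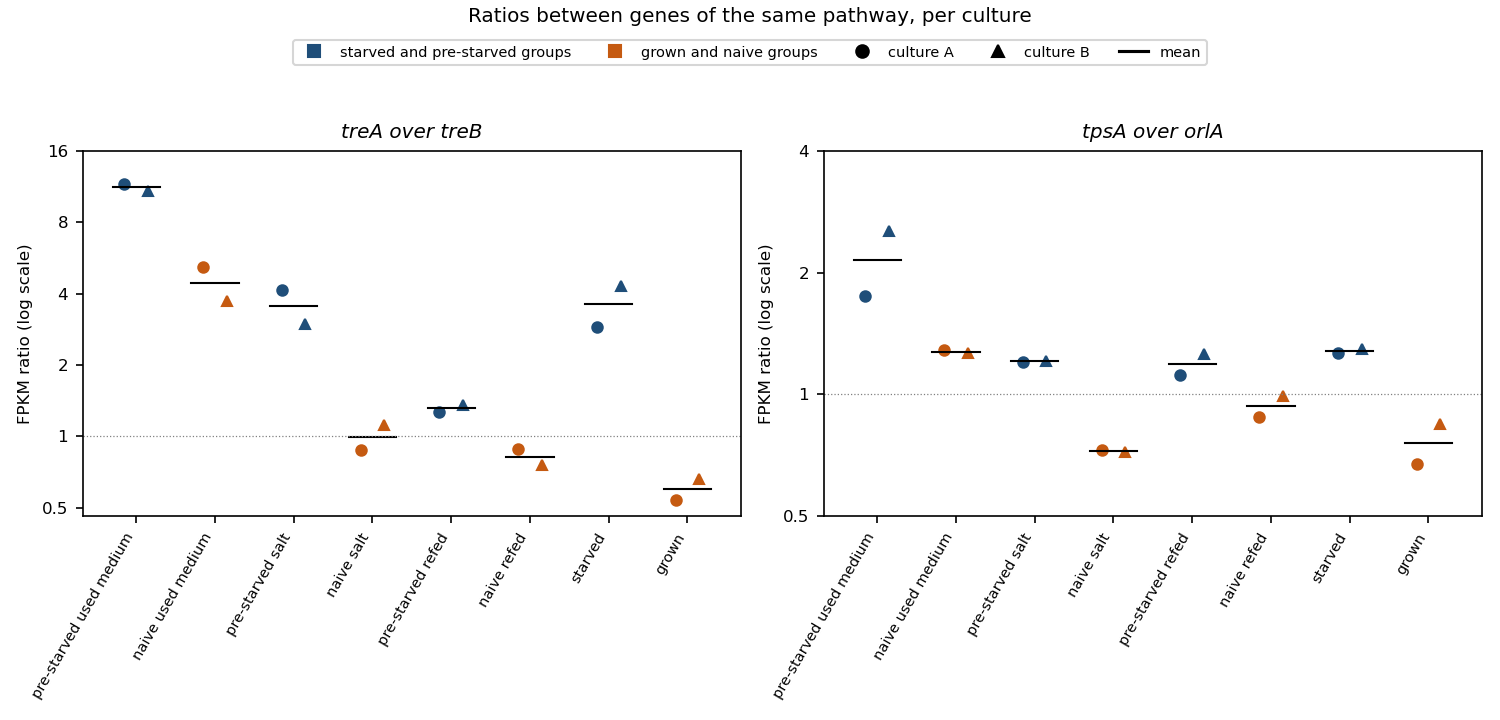
FPKM ratio (log scale) of treA over treB and of tpsA over orlA in each culture, by group; circles are culture A, triangles culture B, bars the mean, and the dotted line marks equal levels per kb. The ratio of treA over treB reached 10.8 to 11.6 in pre-starved cultures in used medium and was 0.537 to 0.660 in grown cultures.

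Of the 6 genes, treA, which encodes the acid trehalase known from the conidial wall, had the widest range, 9.29-fold between group means. It had 1208 and 1089 CPM in pre-starved and 730 and 482 CPM in naive cultures in used medium. In salt it had 528 and 357 CPM in pre-starved and 101 and 172 CPM in naive cultures. Refed cultures had 381 and 448 CPM with past starvation and 130.9 and 131.2 CPM without it. Every pre-starved culture lay above both naive cultures of its medium. Starved cultures had 346 and 562 CPM, against 113 and 134 CPM in grown cultures. The order of the group means fell into 3 tiers: pre-starved cultures in used medium on top, then naive used medium, starved, pre-starved salt and pre-starved refed cultures overlapping neighbour by neighbour, then naive salt, naive refed and grown cultures, again overlapping.

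Starvation for 4 h was accompanied by a treA level 1.88 above that of grown cultures (SE 0.30, adjusted p 1.06e-04). Refeeding for 2 h did not bring a called change from the starved level (-0.13, SE 0.29, adjusted p 0.694; -0.79 with library totals, adjusted p 0.0163), and pre-starved refed cultures remained 1.66 above naive refed ones (SE 0.30, adjusted p 8.61e-04). An hour of salt gave no call for treA, with 0.095 over refed in pre-starved (SE 0.29, adjusted p 0.777; 0.86 with library totals, adjusted p 0.0106) and 0.055 in naive cultures (SE 0.29, adjusted p 0.872), and the difference between histories in salt was 1.70 (SE 0.30, adjusted p 7.16e-04). Used medium raised treA over the refed level by 1.47 in pre-starved (SE 0.30, adjusted p 5.88e-04) and by 2.21 in naive cultures (SE 0.30, adjusted p 2.34e-05). Those 2 responses differed by -0.74 (SE 0.41, adjusted p 0.205, 95% interval -1.63 to 0.16), and so were not told apart. In used medium pre-starved cultures were 0.92 higher than naive ones (SE 0.29, adjusted p 0.0253). This last call was lost without pre-starved culture A (0.85, adjusted p 0.0841), pre-starved culture B (1.00, adjusted p 0.0565) or naive culture B (0.64, adjusted p 0.183). Compared with salt, used medium gave 1.38 in pre-starved cultures (SE 0.30, adjusted p 0.00692), not called without pre-starved salt culture B (1.12, adjusted p 0.0896), and 2.15 in naive cultures (SE 0.30, adjusted p 6.9e-04).

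The spore markers were counted in the same comparisons. In naive cultures, in which used medium raised treA, 5 of the 7 were higher and 1 lower in used medium than after refeeding, where 38.1% of all genes were higher and 38.0% lower. In pre-starved cultures, in which used medium raised treA too, 1 was higher and 3 lower, where 39.9% of all genes were higher and 37.1% lower. In salt over refeeding treA was not called with TMM scaling in either history. There 5 markers were higher and 0 lower in naive cultures (36.3% of all genes higher and 39.1% lower). In pre-starved cultures 2 were higher and 1 lower in salt (40.2% of all genes higher and 36.4% lower). With past starvation, 4 markers were higher in used medium (21.6% of all genes), 6 in salt (24.7%) and 5 after refeeding (21.4%), and in starved against grown cultures 5 were higher (38.8%). In pre-starved cultures in used medium over refeeding, the largest fall was that of rodA, which encodes the hydrophobin of the spore wall, and the largest rise that of vosA, which encodes a regulator of spore maturation. Expression of rodA averaged 154 ± 95.1 CPM in pre-starved cultures in used medium and 1820 ± 284 CPM in pre-starved refed cultures, and 1.53 ± 0.240 CPM in naive cultures in used medium and 0.301 ± 0.0101 CPM in naive refed cultures (SD, n = 2 each). That of vosA averaged 64.7 ± 12.2 CPM in pre-starved cultures in used medium and 17.4 ± 0.371 CPM in pre-starved refed cultures, and 50.8 ± 0.561 CPM in naive cultures in used medium and 19.8 ± 0.850 CPM in naive refed cultures (SD, n = 2 each).

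The cytosolic neutral trehalase gene, treB, known for its part in the mobilisation of trehalose at spore germination, behaved unlike treA. Its highest values, 253 and 279 CPM, were those of pre-starved refed cultures, against 125 and 146 CPM in naive refed cultures. In used medium it had 87.6 and 84.8 CPM in pre-starved and 119 and 109 CPM in naive cultures, and in salt 108 and 101 CPM in pre-starved and 96.8 and 129 CPM in naive cultures. Starved cultures had 100 and 110 CPM, against 178 and 171 CPM in grown cultures. The refed pre-starved cultures thus stood above all others, followed without overlap by grown cultures. Naive refed cultures came next, with culture A below naive salt culture B. Naive used medium, naive salt, starved and pre-starved salt cultures overlapped with their neighbours in that order, and pre-starved cultures in used medium were below every other culture.

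Expression of treB fell in starved cultures relative to grown cultures (log2 change -0.73, SE 0.13, adjusted p 3.03e-04; -0.23 with library totals, adjusted p 0.0974). Refeeding after starvation raised it by 1.34 over the starved level (SE 0.13, adjusted p 1.38e-06) and to 0.97 above naive refed cultures (SE 0.13, adjusted p 1.26e-04). Moving refed pre-starved cultures on into salt lowered it again (-1.35, SE 0.13, adjusted p 1.22e-06), as did used medium (-1.63, SE 0.13, adjusted p 2.10e-07). In naive cultures neither move was called, with -0.26 in salt (SE 0.13, adjusted p 0.0892; 0.27 with library totals, and -0.48, adjusted p 0.00636, without naive salt culture B) and -0.25 in used medium (SE 0.13, adjusted p 0.0996; 0.12 with library totals). The response of treB therefore differed with history, by -1.09 in salt (SE 0.19, adjusted p 0.00131) and by -1.37 in used medium (SE 0.19, adjusted p 3.25e-04), and both calls held in every alternative. The levels reached in salt did not differ by a call (-0.12, SE 0.13, adjusted p 0.508, 95% interval -0.40 to 0.17). In used medium pre-starved cultures were lower than naive ones (log2 change -0.40, SE 0.13, adjusted p 0.0297), which was lost without pre-starved culture A (-0.43, adjusted p 0.0717), pre-starved culture B (-0.38, adjusted p 0.123) or naive culture A (-0.33, adjusted p 0.151), and on the first technical libraries alone (-0.38). Used medium over salt gave -0.28 in pre-starved cultures (SE 0.13, adjusted p 0.176), called with library totals (-0.44, adjusted p 0.0203).

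Per kb of exon, treA over treB was 11.6 and 10.8 in pre-starved and 5.16 and 3.73 in naive cultures in used medium. In salt the ratio was 4.12 and 2.98 in pre-starved and 0.876 and 1.12 in naive cultures. Refed cultures had 1.27 and 1.35 with past starvation and 0.882 and 0.754 without it. The acid trehalase transcript was thus the more abundant per length in every culture with a starvation behind it, in naive cultures in used medium and in naive salt culture B. Starved cultures had a ratio of 2.90 and 4.30 and grown cultures of 0.537 and 0.660.

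**Figure D3:**
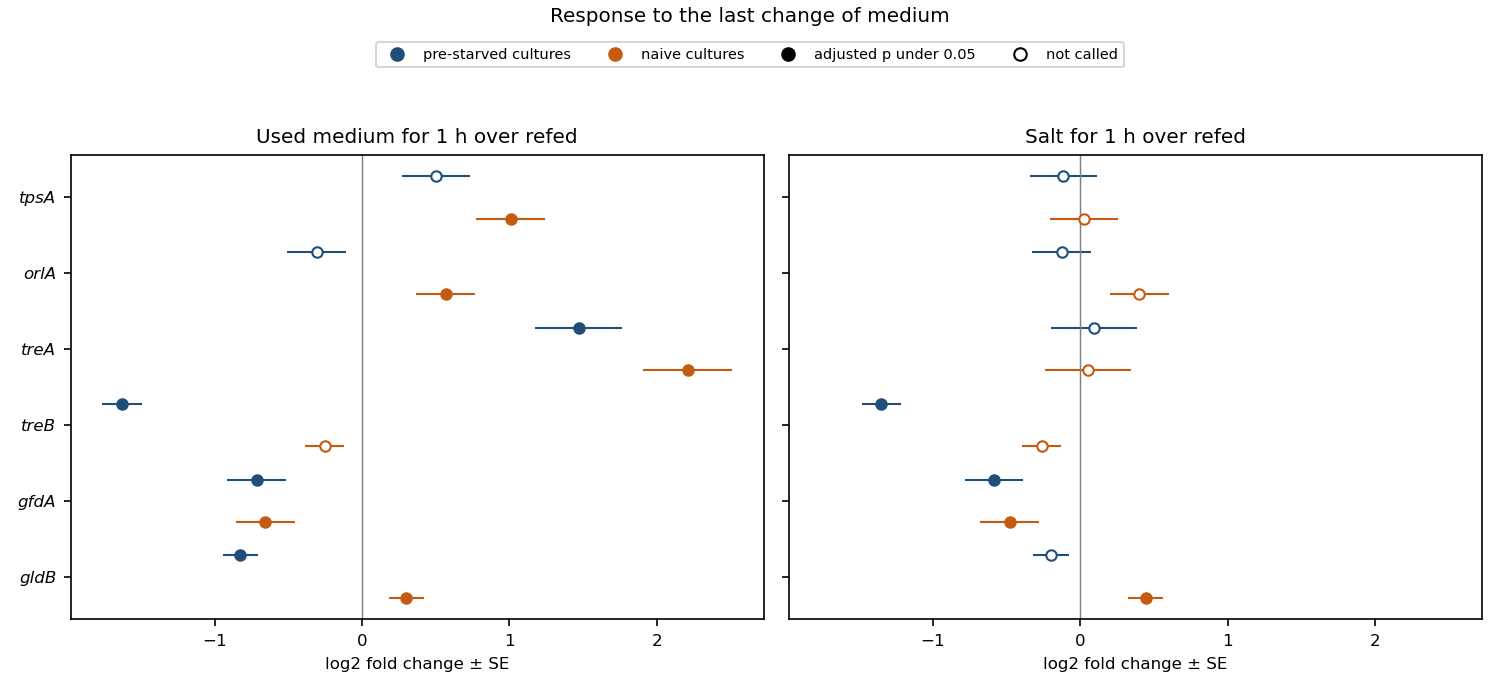
Log2 fold change (horizontal axis, bars are ± SE) of the 6 genes after 1 h in used medium or in salt over refed cultures, for pre-starved and naive cultures; filled points have an adjusted p under 0.05. The points for treB lie at -1.63 in pre-starved and -0.25 in naive cultures in used medium, and at -1.35 in pre-starved and -0.26 in naive cultures in salt.

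With TMM scaling, the gene for glycerol 3-phosphate dehydrogenase, gfdA, was lower after 1 h in salt or used medium than after refeeding. Its values overlapped between the histories. Used-medium cultures had 62.2 and 47.1 CPM with past starvation and 64.1 and 43.9 CPM without it. Salt cultures had 60.2 and 59.4 CPM with past starvation and 51.3 and 70.9 CPM without it. Refed cultures had 87.8 and 91.5 CPM with past starvation and 75.9 and 94.2 CPM without it. In each of these media the naive values enclosed the pre-starved ones, and each culture in salt or used medium lay below each refed culture. Starved cultures had 79.9 and 92.6 CPM and grown cultures 83.4 and 92.0 CPM, which overlapped. Both starved cultures, after 4 h in salt, thus lay above every culture after 1 h in salt.

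Used medium lowered gfdA in pre-starved cultures (log2 change -0.71, SE 0.20, adjusted p 0.00571; -0.12 with library totals, adjusted p 0.571), not without pre-starved used-medium culture B (-0.52, adjusted p 0.0617). In naive cultures the log2 change was -0.65 (SE 0.20, adjusted p 0.00973; -0.28 with library totals, adjusted p 0.179), and the call was lost without naive used-medium culture B (-0.40, adjusted p 0.118) or naive refed culture B (-0.49, adjusted p 0.0885). Salt gave -0.58 in pre-starved cultures (SE 0.20, adjusted p 0.0176), a sign that turned with library totals (0.18, adjusted p 0.372) and a call that was lost without pre-starved salt culture A (-0.59), pre-starved salt culture B (-0.57) or pre-starved refed culture B (-0.55), where adjusted p ran from 0.0613 to 0.0693. In naive cultures salt gave -0.48 (SE 0.20, adjusted p 0.0450), which also turned with library totals (0.051, adjusted p 0.807). There the call was lost with DESeq2 (-0.43), on the groups of the comparison alone (-0.40), on the second technical libraries (-0.47), with a replicate block (-0.48, adjusted p 0.0549), and without naive salt culture A (-0.26, adjusted p 0.327) or naive refed culture B (-0.31, adjusted p 0.270). History gave no call for gfdA in any medium, with 0.016 in used medium, -0.031 in salt and 0.076 after refeeding (SE 0.20 each; -0.091 after refeeding and 0.040 in salt with library totals). The 4 h of starvation gave -0.024 against grown cultures (SE 0.20, adjusted p 0.919, 95% interval -0.46 to 0.41; 0.48 with library totals, adjusted p 0.0311).

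The other glycerol gene, gldB, which encodes an NADP-dependent glycerol dehydrogenase that this fungus needs at high osmolarity, spanned 2.00-fold. It had 259 and 229 CPM in pre-starved and 440 and 388 CPM in naive cultures in used medium, and 393 and 360 CPM in pre-starved and 428 and 488 CPM in naive cultures in salt. Refed cultures had 401 and 463 CPM with past starvation and 331 and 342 CPM without it. The order of the histories after refeeding was thus the opposite of that in salt and used medium, and in none of these 3 media did the groups overlap. Starved cultures had 243 and 215 CPM, against 399.5 and 393 CPM in grown cultures. Starved cultures and pre-starved cultures in used medium overlapped at the low end, below every other culture.

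In starved cultures gldB was lower than in grown ones by a log2 change of -0.79 (SE 0.12, adjusted p 6.71e-05), and refeeding raised it by 0.91 over the starved level (SE 0.12, adjusted p 1.69e-05; 0.24 with library totals, adjusted p 0.0687). Pre-starved refed cultures were 0.36 above naive refed ones (SE 0.12, adjusted p 0.0285), not with library totals (0.19), on the groups of the comparison alone (0.32), or without pre-starved refed culture B (0.25, adjusted p 0.189), naive refed culture A (0.34, adjusted p 0.119) or naive refed culture B (0.38, adjusted p 0.0869). Used medium lowered gldB in pre-starved cultures (-0.82, SE 0.12, adjusted p 3.82e-05; -0.22 with library totals, adjusted p 0.0911). In naive cultures used medium gave a small rise (0.30, SE 0.12, adjusted p 0.0357), lost with DESeq2 (0.29) and without naive used-medium culture A (0.21, adjusted p 0.208), naive refed culture A (0.28, adjusted p 0.125) or naive refed culture B (0.33, adjusted p 0.0803). The 2 responses differed by -1.12 (SE 0.17, adjusted p 6.08e-04), a difference called in every alternative. Salt raised gldB in naive cultures by 0.44 (SE 0.12, adjusted p 0.00454), in every alternative, and gave -0.20 in pre-starved cultures (SE 0.12, adjusted p 0.147; 0.57 with library totals, adjusted p 4.83e-04). These differed by -0.64 (SE 0.17, adjusted p 0.0140), lost without pre-starved salt culture B (-0.58), naive salt culture B (-0.55) or pre-starved refed culture B (-0.54), where adjusted p ran from 0.0510 to 0.0606, and with library totals (-0.40, adjusted p 0.0686). In used medium pre-starved cultures were below naive ones (log2 change -0.77, SE 0.12, adjusted p 4.18e-04), and in salt the difference was -0.28 (SE 0.12, adjusted p 0.0742; -0.41 and called with DESeq2). Against salt, used medium gave -0.63 in pre-starved cultures (SE 0.12, adjusted p 0.00330), not called on the groups of the comparison alone (-0.59), and -0.14 in naive cultures (SE 0.12, adjusted p 0.458).

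By group mean per kb of exon, gldB was the most abundant of the 6 transcripts in every group except pre-starved cultures in used medium, where treA was. The starved cultures differed in this order. Culture A had 161 FPKM of gldB and 104 FPKM of treA, and culture B had 143 FPKM of gldB and 169 FPKM of treA. Group means of gldB were 162 ± 14.2 FPKM in pre-starved and 275 ± 24.3 FPKM in naive cultures in used medium (SD, n = 2 each), against 346 ± 25.2 and 182 ± 52.9 FPKM for treA in the same 2 groups. The ratio of gfdA to gldB ran from 0.258 to 0.338 in starved cultures and from 0.164 to 0.184 in grown cultures, without overlap. In used medium it was 0.161 to 0.188 in pre-starved and 0.0888 to 0.114 in naive cultures, and in salt 0.120 to 0.130 in pre-starved and 0.0940 to 0.114 in naive cultures. After refeeding the order was the other way round, with 0.155 to 0.172 in pre-starved and 0.180 to 0.216 in naive cultures.

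**Figure D4:**
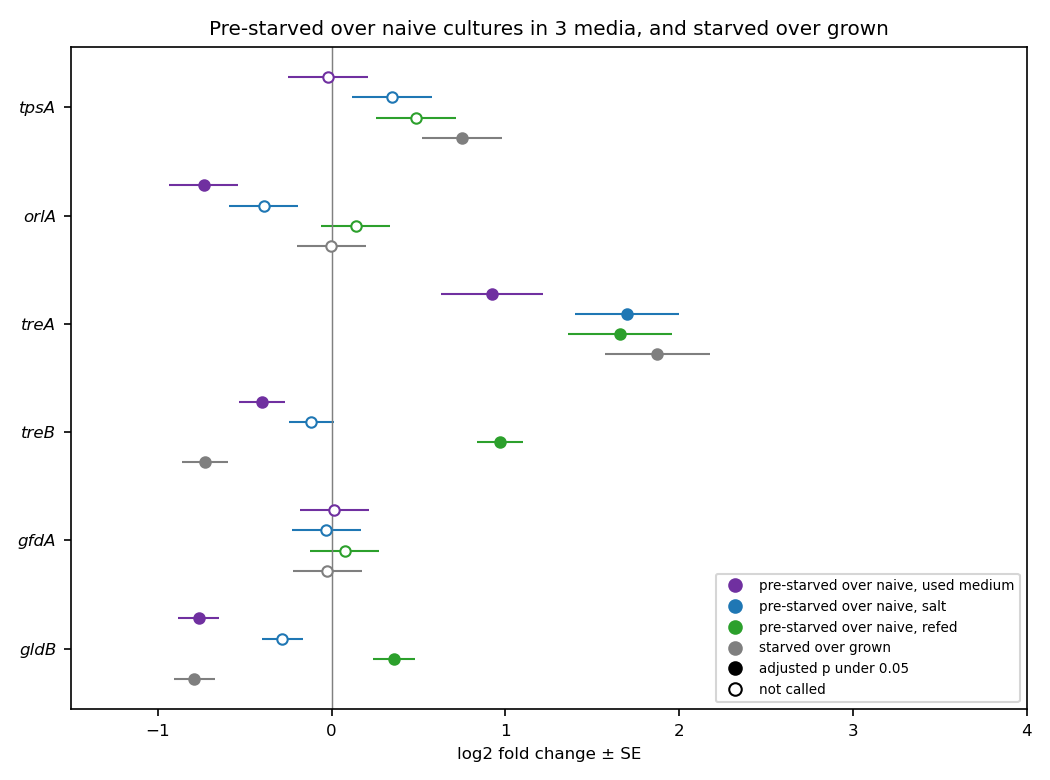
Log2 fold change (horizontal axis, bars are ± SE) of the 6 genes in pre-starved over naive cultures in used medium, salt and fresh medium, and in starved over grown cultures; filled points have an adjusted p under 0.05. For treA all 4 points are above 0, from 0.92 to 1.88, and for gfdA all 4 lie within 0.08 of 0.

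By comparison, 4 of the 6 genes were called between starved and grown cultures, tpsA and treA higher and treB and gldB lower, where 73.4% of all tested genes were called, 38.8% higher and 34.6% lower. Refeeding after starvation called 2, treB and gldB, both higher (76.3% of all genes, 35.2% higher and 41.1% lower). With library totals it called 5, treB higher and tpsA (-0.77), orlA (-0.67), treA (-0.79) and gfdA (-0.61) lower, beside a median of all genes of -0.81. Fresh medium without starvation called 0 of 6 in naive refed against grown cultures, with edgeR and with DESeq2, and 3.10% of all genes, 2.13% higher and 0.978% lower. At an unadjusted p under 0.05 edgeR had 1, treB (log2 change -0.36, SE 0.13, p 0.0179, adjusted p 0.177). Past starvation called 3 after refeeding, treA, treB and gldB, all higher (42.7% of all genes, 21.4% higher and 21.3% lower).

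An hour of used medium called 4 of 6 in pre-starved cultures, treA higher and treB, gfdA and gldB lower, against 76.9% of all genes, 39.9% higher and 37.1% lower. In naive cultures it called 5, tpsA, orlA, treA and gldB higher and gfdA lower, against 76.2% of all genes, 38.1% higher and 38.0% lower, and 3 without naive used-medium culture A, naive refed culture A or naive refed culture B. Salt called 2 in pre-starved cultures, treB and gfdA lower (76.6% of all genes, 40.2% higher and 36.4% lower; 5 of the 6 with library totals), and 2 in naive cultures, gldB higher and gfdA lower (75.3% of all genes, 36.3% higher and 39.1% lower). The comparisons with refed cultures share those refed cultures, and their values are set side by side above.

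Pre-starved against naive cultures in used medium gave 4 calls, treA higher and orlA, treB and gldB lower (39.7% of all genes, 21.6% higher and 18.1% lower), and in salt 1, treA higher (43.0% of all genes, 24.7% higher and 18.2% lower). The difference between the responses of the histories was called for 3 genes in used medium, orlA, treB and gldB (27.4% of all genes, 15.1% higher and 12.3% lower), and for 2 in salt, treB and gldB (29.1% of all genes, 17.1% higher and 12.0% lower). All 5 of these differences were negative. Used medium against salt called 2 in pre-starved cultures, treA higher and gldB lower (17.0% of all genes, 9.02% higher and 8.0% lower), and 2 in naive cultures, tpsA and treA, both higher (14.6% of all genes, 8.09% higher and 6.51% lower).

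Genes that supply or are linked to these pathways were followed as a list of 15: 8 of sugar phosphate supply, 6 of the osmotic stress kinase cascade, and AN6792 beside the glycerol genes. The identifiers without a symbol in RefSeq are given as such. Changes and calls of these 15 genes are given with TMM scaling only, and whether they hold in the alternatives was not examined. All 8 sugar supply genes were lower in starved than in grown cultures, where 34.6% of all genes were lower, with a median log2 change of -1.25 against 0.10 over all genes. The largest fall was that of gpdA, glyceraldehyde 3-phosphate dehydrogenase of glycolysis, at 697 ± 137 CPM in starved and 9358 ± 631 CPM in grown cultures (SD, n = 2 each). The fall of gpdA was -3.75 (SE 0.20, adjusted p 5.02e-09), and that of ugp1, whose product makes the UDP-glucose used for trehalose, was -0.64 (SE 0.12, adjusted p 4.72e-04). Refeeding after starvation raised 7 of the 8 (35.2% of all genes) and lowered ugp1 (-0.32, SE 0.12, adjusted p 0.0326). In pre-starved refed against naive refed cultures 5 of the 8 were higher (21.4% of all genes) and ugp1 was lower (-0.61, SE 0.12, adjusted p 0.00187).

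In used medium 7 of the 8 were lower in pre-starved and 7 in naive cultures than after refeeding, and in salt 6 in pre-starved and 7 in naive cultures. Of all genes, 37.1% were lower in pre-starved and 38.0% in naive cultures in used medium, and 36.4% in pre-starved and 39.1% in naive cultures in salt. The phosphoglucomutase gene pgmA was the exception in naive cultures, with a rise of 0.39 in used medium (SE 0.10, adjusted p 0.00274) and of 0.33 in salt (SE 0.10, adjusted p 0.00816). In pre-starved cultures pgmA changed by -0.28 in used medium (SE 0.10, adjusted p 0.0203), and the difference of the histories was -0.67 there (SE 0.14, adjusted p 0.00406). Unscaled, pgmA had 18104 and 19407 counts in pre-starved cultures in used medium, against 17073 and 16861 in pre-starved refed cultures, whose totals were larger. The sign of this change of pgmA thus depends on TMM scaling. The supply genes' responses differed by history for 5 of 8 in used medium, all negative (12.3% of all genes), and for 7 of 8 in salt, 6 negative (12.0% of all genes) and ugp1 positive (0.69, SE 0.17, adjusted p 0.0119).

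Of the 6 cascade genes, sakA, a stress MAP kinase gene, was 1.34 higher in starved than in grown cultures (SE 0.19, adjusted p 3.51e-05), and sskB was higher too (0.29, SE 0.10, adjusted p 0.0250). The upstream kinase gene pbs2 (-1.16, SE 0.11, adjusted p 9.33e-07), the response regulator gene sskA and the kinase gene mpkC were lower, and atfA was not called. Of all genes, 38.8% were higher and 34.6% lower there. Used medium raised sakA by 0.78 in pre-starved (SE 0.19, adjusted p 0.00219) and by 1.47 in naive cultures (SE 0.19, adjusted p 1.30e-05). In used medium sakA was at 325 ± 13.8 CPM in pre-starved and 509 ± 84.0 CPM in naive cultures (SD, n = 2 each), a log2 change of -0.65 (SE 0.19, adjusted p 0.0159). In salt it was at 354 ± 28.4 CPM in pre-starved and 464 ± 76.4 CPM in naive cultures. After refeeding it was at 190 ± 41.7 and 183 ± 41.9 CPM (SD, n = 2 each). Over refeeding, used medium called 1 cascade gene higher and 3 lower in pre-starved, and 2 higher and 3 lower in naive cultures. Salt called 1 higher and 3 lower in either history. The shares of all genes were 36.3% to 40.2% higher and 36.4% to 39.1% lower.

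The gene AN6792 was low throughout. With TMM scaling it was called in starved against grown and in pre-starved refed against starved cultures, where gfdA was not. In salt against refed cultures of either history, AN6792 was higher and gfdA lower, again with TMM scaling. With library totals gfdA gave 0.18 in pre-starved and 0.051 in naive cultures there, neither of them called. AN6792 had 7.46 ± 0.976 CPM in starved and 1.10 ± 0.177 CPM in grown cultures (SD, n = 2 each), a log2 change of 2.77 (SE 0.38, adjusted p 2.88e-05). Refeeding after starvation lowered AN6792 (log2 change -2.40, SE 0.37, adjusted p 6.44e-05). Salt raised it over the refed level by 2.75 in pre-starved (SE 0.37, adjusted p 2.05e-05) and by 1.28 in naive cultures (SE 0.35, adjusted p 0.00506), and these responses differed by 1.47 (SE 0.50, adjusted p 0.0431). Its mean of 9.49 ± 1.00 CPM in pre-starved cultures in salt was its highest, against 7.25 ± 1.77 CPM in naive cultures in salt (SD, n = 2 each).

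Over the 8 group means of log2 CPM, which share scaling and libraries, the 6 genes did not move as a block. The synthase gene tpsA and the acid trehalase gene treA had a Pearson r of 0.95 (n = 8 groups), the highest of the 15 pairs. Next was treB with gfdA at 0.695, while tpsA and orlA, which encode successive steps, had an r of 0.0447. The pairs tpsA with gfdA (-0.56) and treA with gfdA (-0.50) were negative. So were treA with gldB (-0.49), tpsA with gldB (-0.41), tpsA with treB (-0.38) and treA with treB (-0.36). The remaining negative pairs were orlA with gfdA (-0.21), orlA with treA (-0.20) and gfdA with gldB (-0.046). These correlations over 8 group means are descriptions of the pattern.

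Among 7349 other tested genes that averaged 10 CPM or more, the pattern closest to that of tpsA over the 8 groups was that of AN1518 (Pearson r 0.98), followed by AN8903 (0.97) and AN5493 (0.95). For treA it was AN2740, which RefSeq names pdeB (0.97), then AN5578 and AN2011 (0.96 each). For treB it was AN6037 of the sugar supply list (0.98), with 1407 ± 140 CPM in pre-starved refed and 407 ± 6.79 CPM in naive refed cultures (SD, n = 2 each), then AN0797 (0.98) and AN4464 (0.97). For gfdA it was AN6877 (0.99), then AN11845 (0.98) and AN10781 (0.97). For orlA and gldB the closest genes were less alike, AN7596 (0.90) for orlA and AN1485 (0.94) for gldB. None of the other genes of these lists has a symbol in RefSeq.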

How the data were processed

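The authors deposited raw counts per gene, 1 column per library, as whole numbers, together with log2 FPKM per group and a log2 exon length column. The labels give TruSeq RNA v2 libraries, which keep no strand, read as 50 nt single ends, and mapping to the FGSC A4 genome. Per the submitters' processing notes, Trimmomatic 0.36, BWA, HTSeq, limma and edgeR were used, with no role stated for any of them, and the gene annotation is not given in the sources used here. No neighbour overlapped any of the 6 genes in the RefSeq table (assembly ASM1142v1), which was used for names and gene order and held 9967 of the identifiers. Sequences of the genes were not used here.

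The 2 technical libraries of each culture were summed into 1 count per gene. With R 4.3.3 and edgeR 4.0.16, filterByExpr (minimum count 10, minimum total 15) kept 10022 genes, and the 659 left out held 0.00149% of counts. Sums were scaled by TMM and fitted by the quasi-likelihood functions with a mean per group (8 residual degrees of freedom), for 14 comparisons, 2-sided. SE was the log2 change over the square root of F. FPKM was computed from the scaled counts and the deposited log2 exon length. The deposited log2 FPKM of the authors, 1 per group, were compared with these values and not used further. Library totals ran from 19634577 to 33202687 counts, and chi-square over its degrees of freedom was 2.12 to 2.29 between technical libraries and 44.2 to 272 between cultures within a group. The fitting procedure was run on simulated data in which a small part of the genes changed, in the starved group only and evenly up and down. That simulation does not cover changes in most genes, as were called here, and so does not bear on the choice of scaling.

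The 6 genes, the 15 linked genes and the 7 spore markers were chosen with earlier results of these data known, although the rule for the 6 lists identifiers and holds no measured value. All 6 are described in every comparison. Of the linked genes, the text names only some, chosen after their values were seen. Results of the alternatives were kept for the 6 genes and for the number of all genes called, not for the linked genes or the spore markers. The largest rise and fall are not named for every comparison. The most alike genes were the 3 with the highest Pearson r over the group means of log2 CPM (prior count 2). Alternatives were DESeq2 1.42.0, library totals, no filter, a replicate block, the groups of a comparison alone, 1 technical library per culture, and each culture left out in turn, where an arm with a lone culture takes its spread from the other groups.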

Additional observations from a re-analysis of the deposited data

Results flagged for a closer look

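Of the 12 tests asking whether the response of pre-starved cultures to a medium differed from that of naive cultures, 5 were called, 2 of 6 in salt, where 29.1% of all genes were called, and 3 of 6 in used medium, where 27.4% were. Each is a difference of log2 responses, pre-starved minus naive.

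The response of treB, the neutral trehalase gene, differed by -1.09 in salt (SE 0.19, adjusted p 0.00131) and by -1.37 in used medium (SE 0.19, adjusted p 3.25e-04). Pre-starved refed cultures, which enter both, had 253 and 279 CPM of treB, against 125 and 146 CPM in naive refed cultures. After 1 h in salt the levels were 108 and 101 CPM in pre-starved and 96.8 and 129 CPM in naive cultures.

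The response of gldB, the glycerol dehydrogenase gene, differed by -0.64 in salt (SE 0.17, adjusted p 0.0140) and by -1.12 in used medium (SE 0.17, adjusted p 6.08e-04). In used medium the cultures of both histories ended at different levels, 259 and 229 CPM in pre-starved and 440 and 388 CPM in naive cultures.

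The response of orlA, the trehalose 6-phosphate phosphatase gene, differed by -0.87 in used medium (SE 0.28, adjusted p 0.0368; not called with library totals, -0.64, or in 6 other alternatives, with adjusted p up to 0.130), with 155 and 122 CPM in pre-starved and 258 and 203 CPM in naive cultures there.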

How the results depend on the processing

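Over the alternatives, 818 of 972 recomputed log2 changes of the 6 genes kept their direction and their side of the threshold. Of the 36 called results 17 did so in every alternative, and of the 48 not called 10. The letters A and B are shared by all groups, but the correlation of their deviations between groups ran from -0.283 to 0.362 over 28 pairs of groups, with 10 above 0.1, so they were not taken to pair cultures. With them as a replicate block, 1 of the 6 genes was called in naive salt against naive refed cultures, where 2 were called without it, tpsA gained its call in pre-starved used medium against pre-starved refed cultures (0.51), and no other call changed. Only 2 cultures per group limit the precision, while counts of the 6 genes do not.

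The number of the 6 genes called moved by more than 1.5 times as follows; smaller moves, such as from 3 to 2 for the difference between histories in used medium and for pre-starved refed against naive refed cultures, stand with the genes. With library totals it was 5 in pre-starved refed against starved cultures and in pre-starved salt against pre-starved refed cultures, and 1 for the difference between histories in salt. It was 1 for naive salt against naive refed cultures with DESeq2, on the groups of the comparison alone and on the second technical libraries, and 3 for pre-starved against naive salt cultures with DESeq2. With each culture left out in turn it ran from 1 to 3 for naive salt and from 3 to 4 for naive used medium against naive refed cultures, from 1 to 2 for pre-starved salt against pre-starved refed, from 1 to 2 for pre-starved against naive salt cultures and for the difference between histories in salt, from 1 to 3 for pre-starved against naive used medium, and from 1 to 2 for used medium against salt in either history.

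Among all tested genes, calls in naive refed against grown cultures numbered 311, but 599 with DESeq2, 759 on those groups alone and 64 to 128 with a culture left out. They numbered 3978 in pre-starved against naive used medium, but 2497 on those groups alone. For used medium against salt they numbered 1706 in pre-starved cultures, but 706 on those groups alone and as few as 816 with a culture left out, and 1463 in naive cultures, but as few as 568.

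Signs turned for the following, of which only gfdA in salt, in either history, was called with TMM scaling. With library totals, starved against grown cultures gave 0.50 for orlA and 0.48 for gfdA; pre-starved refed against starved gave -0.61 for gfdA; pre-starved refed against naive refed gave -0.031 for orlA and -0.091 for gfdA. Salt over refed gave 0.66 for tpsA, 0.64 for orlA, 0.18 for gfdA and 0.57 for gldB in pre-starved cultures, and 0.27 for treB and 0.051 for gfdA in naive ones. Used medium over refed gave 0.30 for orlA in pre-starved and 0.12 for treB in naive cultures, and used medium over salt gave -0.15 for treB in naive cultures. Pre-starved against naive cultures gave 0.040 for gfdA in salt and 0.043 for tpsA in used medium, and the difference between histories 0.10 for tpsA and 0.13 for gfdA in salt and 0.17 for gfdA in used medium. In starved against grown cultures orlA gave 0.0022 without a filter, 0.0099 and 0.027 on the first and second technical libraries, and gfdA 0.050 on the second. In pre-starved refed against starved cultures orlA gave 0.062 with DESeq2, 0.053 on those groups alone and 0.00092 with the replicate block, and gfdA -0.017 on the second technical libraries. The history difference of treA in salt gave -0.089 with DESeq2, -0.042 on those groups alone and -0.018 on the first technical libraries, and that of gfdA in used medium 0.012 on the first. In pre-starved against naive used medium gfdA gave -0.017 with DESeq2, -0.00997 on those groups alone and -0.10 on the second technical libraries, and treB in naive used medium against salt gave -0.049 with DESeq2. The cause of these changes was not tested.

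With a culture left out, the log2 changes that turned sign, none of them called with all cultures, ran over these ranges. In starved against grown cultures orlA ran from -0.19 to 0.17 and gfdA from -0.13 to 0.079. In pre-starved refed against starved cultures tpsA ran from -0.30 to 0.10, orlA from -0.17 to 0.18, treA from -0.44 to 0.26 and gfdA from -0.049 to 0.16. In naive refed against grown cultures tpsA ran from -0.081 to 0.39, treA from -0.034 to 0.21 and gfdA from -0.21 to 0.10. In pre-starved refed against naive refed cultures gfdA ran from -0.070 to 0.24. For naive salt against naive refed tpsA ran from -0.27 to 0.28 and treA from -0.38 to 0.39. For pre-starved salt against pre-starved refed tpsA ran from -0.28 to 0.086 and treA from -0.21 to 0.35. For pre-starved against naive salt cultures treB ran from -0.31 to 0.11 and gfdA from -0.24 to 0.22. For the history difference in salt tpsA ran from -0.39 to 0.17, treA from -0.29 to 0.47 and gfdA from -0.32 to 0.14. For pre-starved against naive used medium tpsA ran from -0.20 to 0.18 and gfdA from -0.24 to 0.31. For the history difference in used medium gfdA ran from -0.30 to 0.24. For naive used medium against salt orlA ran from -0.091 to 0.48, treB from -0.18 to 0.24 and gfdA from -0.48 to 0.075. For pre-starved used medium against salt gfdA ran from -0.35 to 0.056.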
